A study of Gallus gallus with 30 samples.

Results

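The 5 genes followed here belong to the ubiquitin system and were measured in the breast muscle of fast-growing and slow-growing chickens. They encode HERC4, RLIM (also written RNF12), FBXO30, FBXO22 and UCHL1. The members were all probe sets whose platform gene symbol was one of these names, and every probe set was kept because those of a gene disagreed. This gave 21 of the 38439 probe sets tested: 5 for HERC4, 3 for RLIM, 4 for FBXO30, 6 for FBXO22 and 3 for UCHL1. The study named each of these genes as higher in layers, citing the same arrays and its quantitative RT-PCR. Their line differences are therefore described here and are not independent evidence for that choice.

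Total RNA of the Pectoralis major, the main breast muscle, was measured on the Affymetrix Chicken Genome Array in male Arbor Acres (AA) broilers, bred for meat, and male White Leghorn layers, bred for eggs. Muscle was taken at 1 day (1 d) and at 2, 4, 6 and 8 weeks (2 w, 4 w, 6 w and 8 w) after hatch. Housing and feed did not differ between the lines, and the feed was a layer ration. RNA of 5 males was pooled for each line and age and each pool was hybridised to 3 arrays, so the 30 arrays hold 10 RNA pools and only 1 pool of each line at each age. Arrays of a pool give the technical spread, and the line difference was tested over the 5 ages. Line and age are the labelled differences between groups, and each line is a single stock, so line and stock cannot be told apart.

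Ubiquitin is a small protein that cells attach to other proteins, most often as chains that mark them for the proteasome. An activating enzyme (E1) charges ubiquitin, a conjugating enzyme (E2) carries it, and a ligase (E3) chooses the substrate. HERC4 is a ligase of the HECT kind, which takes ubiquitin onto itself before passing it on, and it also carries an RCC1-like domain. RLIM is a RING finger ligase that binds LIM-homeodomain transcription factors and their cofactors. FBXO30 and FBXO22 are F-box proteins, the substrate-binding parts of ligases built on SKP1 and CUL1, and in mice FBXO30 (MUSA1) takes part in muscle wasting. UCHL1 acts in the opposite direction: it is a hydrolase that frees ubiquitin from its carboxyl-terminal adducts, and it is best known from neurons. In muscle the balance of protein synthesis and breakdown sets fibre size, which makes these enzymes of interest in lines that differ in growth.

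The study designed quantitative RT-PCR primers for 4 of these genes, shown because they belong to its second assay. The primers were not aligned here, and the chromosome beside each is that of its gene. The transcript record given with the HERC4 pair was not among the current transcripts of that gene. For RLIM, FBXO22 and UCHL1 the record given was among the current transcripts of the gene. Sequences run 5′ to 3′ and no letter is set apart.
HERC4 forward, chromosome 6: tgcctttggagaagaaaaaacag
HERC4 reverse, chromosome 6: tgttggctggatgactagtttaagac
RLIM forward, chromosome 4: agagttgctgagaaggctgca
RLIM reverse, chromosome 4: ctccatttgaaacatcttctgtgg
FBXO22 forward, chromosome 10: agaaacagccattgcgattga
FBXO22 reverse, chromosome 10: tgctgcttgaacccataggg
UCHL1 forward, chromosome 4: aggacagtgtcgggttgagg
UCHL1 reverse, chromosome 4: gaaatggcaaacgcccatc

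Genome positions were taken from the array annotation that the study printed for its selected genes, on the chicken build Gallus-gallus-2.1. It gave positions for 3 of the 21 probe sets, all on the minus strand. Positions of the other sets were not looked up. Gga.3176.1.S1_at of RLIM lay at chr4:12437225-12451142, Gga.2248.1.S1_at of FBXO30 at chr3:48418125-48419359, and Gga.14609.1.S1_at, a dim probe set of HERC4, at chr6:11548721-11556157. A name that ends in _s_at marks a probe set whose probes match more than 1 transcript, and probe sets with the same stem in their name come from the same sequence cluster.

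The median log2 signal of an array was 4.08 at the lowest and 4.19 at the highest. Over all probe sets the median of the mean signals was 4.14. Of the 21 members, 15 had a mean above that median and 6 below it: 3 of HERC4, 2 of UCHL1 and 1 of FBXO22. Of 15 skeletal muscle fibre markers 10 were measured, 1 of them below the median signal of all probe sets. Their mean log2 signal was 11.6 to 12.1 in broiler pools. In layer pools it was 11.6 to 11.9, as the tissue label says. The mean of 6 cartilage markers was 5.65 in the layer pool of 1 d. It was 3.97 to 4.20 in the other layer pools and 4.06 to 4.20 in broiler pools. What this means for the 1 d values was not tested. All signals below are RMA values, which are log2 and normalised across arrays by the authors, so a difference of 1 is a doubling. Signals of different probe sets cannot be ranked against each other, because each has its own probes.

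HERC4 and RLIM were lower in broilers than in layers, and no member was higher at the adjusted threshold. With limma on the pool means, 4 of the 21 probe sets passed an adjusted p of 0.05 for the line difference, all lower in broilers: 1 of HERC4 and all 3 of RLIM. Over all probe sets 520 passed (1.35%), of which 278 were lower in broilers (0.723%) and 242 higher (0.630%). At an unadjusted p under 0.05, 12 of the 21 passed and 14.3% of all probe sets did. The median line difference of the 21 was -0.27 on the log2 scale, against 0.00 for all probe sets. In bulk tissue, less RNA per cell and fewer cells of a type cannot be told apart.

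**Figure D1:**
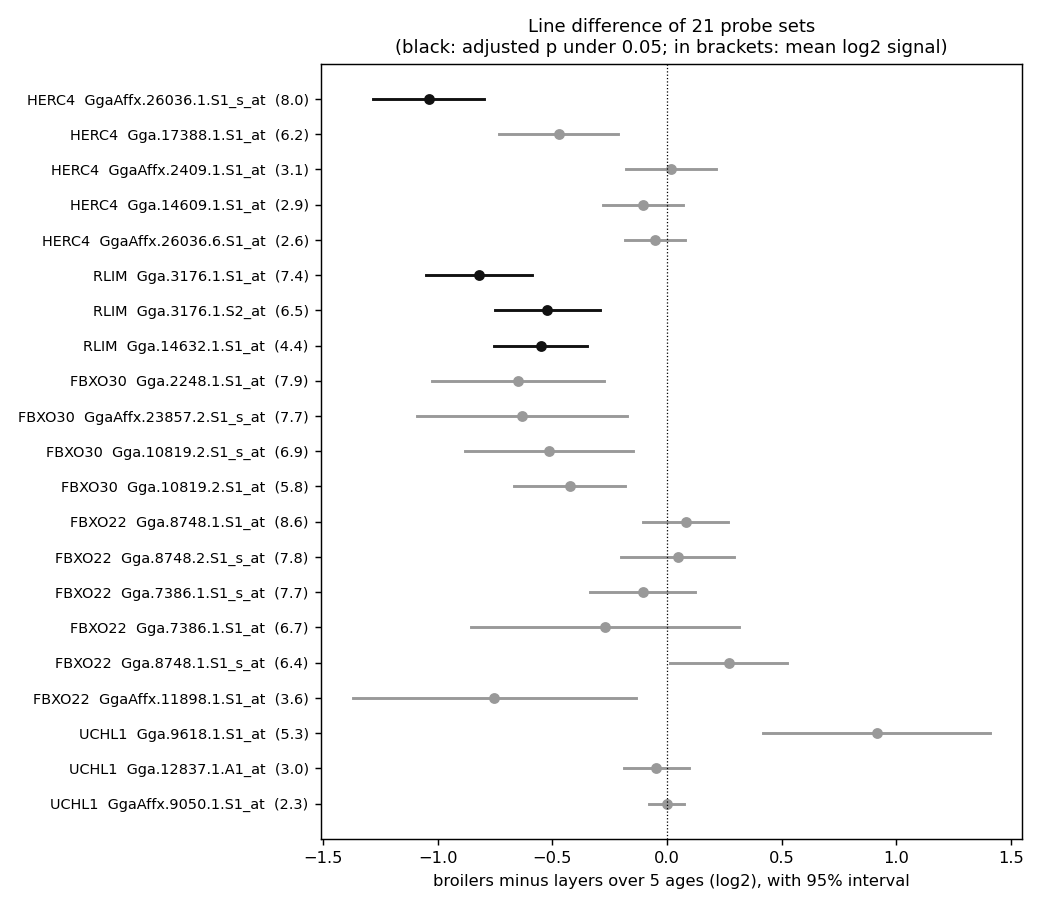
Line difference of each of the 21 probe sets, as broilers minus layers over the 5 ages on the log2 scale, with its 95% interval. Black marks the 4 probe sets past the adjusted threshold, 1 of HERC4 and 3 of RLIM, and grey the others, among them the FBXO30 sets from -0.65 to -0.42 and UCHL1 at 0.91.

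HERC4 was read by 2 probe sets above the median signal. For GgaAffx.26036.1.S1_s_at the broiler pools stood at 7.11 (1 d), 7.84 (2 w), 7.32 (4 w), 7.55 (6 w) and 7.65 (8 w). The layer pools stood at 8.24, 8.66, 8.76, 8.45 and 8.55 at the same ages. The lines did not overlap at all: the highest broiler pool lay below the lowest layer pool, and at each of the 5 ages all 3 broiler arrays lay below all 3 layer arrays. Broilers were thus 2.19-fold lower at 1 d, 1.77-fold at 2 w, 2.72-fold at 4 w, 1.86-fold at 6 w and 1.87-fold at 8 w. Over the 5 ages the difference was -1.04 ± 0.107 (SE, 5 pools a line), or 2.06-fold lower, with a limma adjusted p of 0.00492. It kept this call without any 1 replicate number and without any 1 age (adjusted p 0.00485 to 0.0244).

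The other HERC4 probe sets showed a smaller difference or none that could be measured. Gga.17388.1.S1_at had broiler pools from 5.83 to 6.18 and layer pools from 6.02 to 6.80, so the lines overlapped. It was lower in broilers at 5 of 5 ages, by 0.47 ± 0.115, which did not pass (limma adjusted p 0.0892). Its pools moved with those of the brighter set, with r = 0.85 over the 10 pools. The 3 dim sets had pool means of 2.38 to 3.31 in both lines and line differences of 0.02, -0.10 and -0.05. For the dimmest, the 95% interval ran from -0.19 to 0.08. So the 2.06-fold value rests on 1 of 5 probe sets, and that set is one whose probes match more than 1 transcript. Averaged over its 5 probe sets, HERC4 was lower in broilers by 0.33, which did not pass (limma adjusted p 0.0850).

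RLIM was lower in broilers in every probe set. For Gga.3176.1.S1_at the broiler pools stood at 7.10 (1 d), 7.02 (2 w), 7.01 (4 w), 6.81 (6 w) and 6.97 (8 w), and so varied little with age. The layer pools stood at 8.26, 7.84, 7.55, 7.66 and 7.71, highest at 1 d. All broiler pools lay below all layer pools, and the arrays were apart at each age. The broiler signal was 2.24-fold lower at 1 d, 1.76-fold at 2 w, 1.45-fold at 4 w, 1.80-fold at 6 w and 1.67-fold at 8 w. Over the ages the difference was -0.82 ± 0.102 (SE, 5 pools a line), 1.76-fold, with a limma adjusted p of 0.01001, and without any 1 replicate number or age that p was at most 0.0464.

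The other RLIM probe sets pointed the same way with smaller differences. Gga.14632.1.S1_at, with pools from 3.98 to 5.01 and a mean of 4.43, was lower in broilers by 0.55 ± 0.090 (limma adjusted p 0.0260). Gga.3176.1.S2_at was lower by 0.52 ± 0.102 (limma adjusted p 0.0459). In both sets the 5 broiler pools lay below the 5 layer pools, and all 3 broiler arrays lay below all layer arrays at 4 of 5 ages. These calls were less steady than that of the brightest set. The call of Gga.14632.1.S1_at was lost without replicate 2 (adjusted p 0.0566) and without the pools of 2 w, 4 w or 8 w (0.103, 0.0589 and 0.0809). That of Gga.3176.1.S2_at was lost without replicate 2 (0.0879), without the pools of 1 d, 2 w, 6 w or 8 w (0.0711, 0.160, 0.116 and 0.128), with arrays centred on their medians (0.0511) and after a second quantile normalisation (0.0546). The mean of the 3 probe sets was lower in broilers by 0.63 (limma adjusted p 0.0161), and their correlations over the 10 pools were 0.85 to 0.93.

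Across the array, 262 probe sets (0.682%) had their 5 broiler pools below their 5 layer pools, and 4 of the 21 members did, the same 4 that passed the test. Lower values in broilers at all 5 ages were found for 6 members and for 6.33% of all probe sets. The study used an unadjusted p under 0.01 and at least 1.5-fold, in an ANOVA with a sample size of 30. At these thresholds in the fit on pool means, 4 of the 21 passed against 1.20% of all. They were the brightest sets of HERC4, RLIM and FBXO30, lower in broilers, and of UCHL1, higher in broilers.

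**Figure D2:**
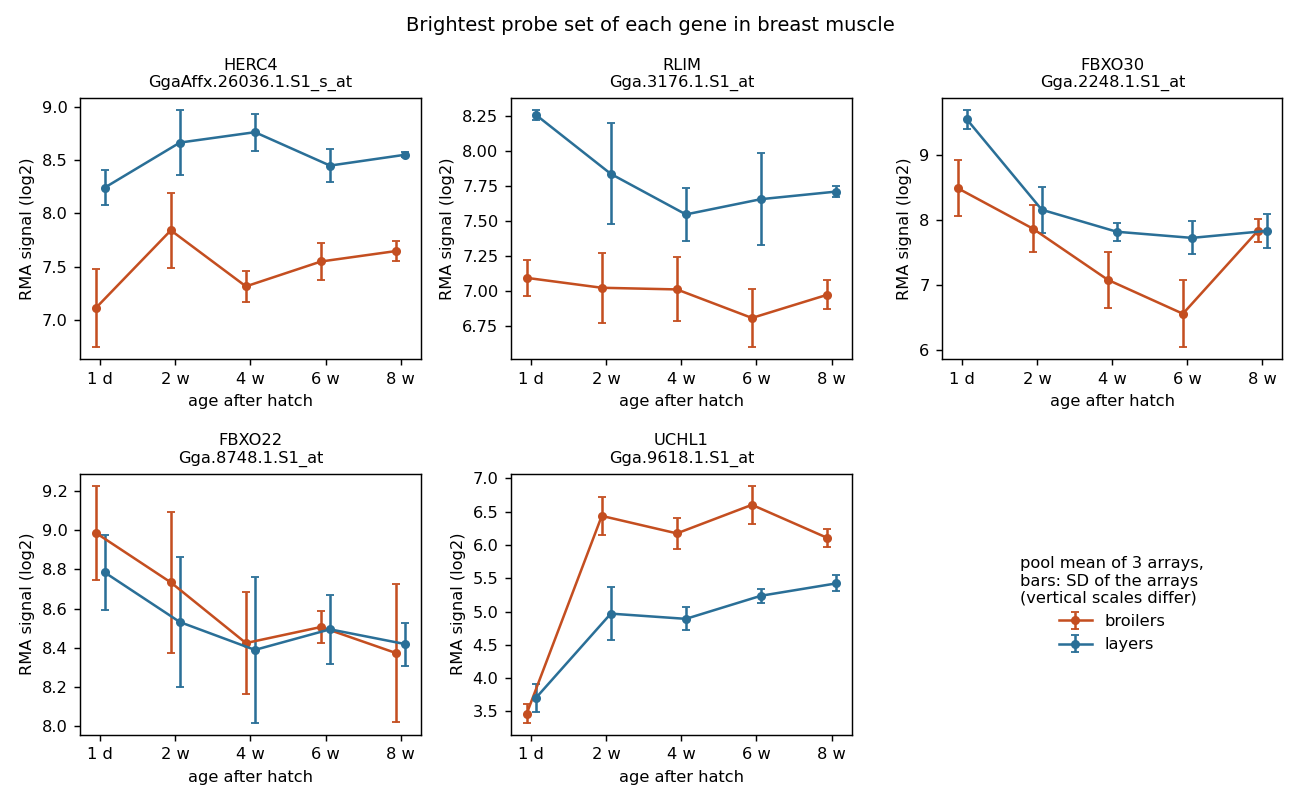
Log2 RMA signal of the brightest probe set of each gene by age after hatch, as the mean of 3 arrays of a pool with the SD of those arrays. The lines are apart at every age for HERC4 and RLIM, at 1 d, 4 w and 6 w for FBXO30 and from 2 w on for UCHL1, and FBXO22 overlaps throughout.

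FBXO30 fell after hatch in both lines, and the arrays of the lines were apart at some ages only. With 1 pool of each line at each age, whether its line difference changed among the later ages was not tested. For Gga.2248.1.S1_at the broiler pools stood at 8.49 (1 d), 7.87 (2 w), 7.08 (4 w), 6.56 (6 w) and 7.84 (8 w). The layer pools stood at 9.55, 8.16, 7.82, 7.73 and 7.84. Broilers were lower by 1.06 at 1 d, 0.74 at 4 w and 1.17 at 6 w, where the arrays did not overlap. At 2 w and 8 w they overlapped, and at 8 w the pools differed by 0.00. In this set the level ran from 1 d down to 6 w in both lines. Its 8 w pools both stood above the 6 w pools, in broilers (7.84 after 6.56) by more than in layers (7.84 after 7.73), each a step between single pools. The layer pool of 8 w stood below that of 6 w in GgaAffx.23857.2.S1_s_at (7.53 after 7.63), Gga.10819.2.S1_s_at (6.66 after 6.79) and Gga.10819.2.S1_at (5.58 after 5.75). Gga.10819.2.S1_at was lower in broilers at each age, by 0.28 at 8 w with arrays that overlapped.

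Over the 5 ages Gga.2248.1.S1_at was lower in broilers by 0.65 ± 0.166, or 1.57-fold, and did not pass (limma adjusted p 0.103). The other 3 sets were lower by 0.63 ± 0.204, 0.52 ± 0.162 and 0.42 ± 0.107, with limma adjusted p of 0.186, 0.176 and 0.0993. The 95% intervals of the 4 sets lay below 0, and their pools correlated with r of 0.91 to 0.99. The adjusted p over all probe sets left each of them outside the threshold. GgaAffx.23857.2.S1_s_at had the widest gap at a single age: its broiler pool of 6 w stood at 6.16 and the layer pool at 7.63, a 2.77-fold difference.

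The fall of FBXO30 after hatch was past the threshold in all 4 sets. The mean of 2 w to 8 w was lower than 1 d by 1.41 ± 0.208, 1.39 ± 0.254, 1.00 ± 0.203 and 1.15 ± 0.134, with limma adjusted p of 0.000839, 0.00277, 0.00494 and 0.000217. For Gga.2248.1.S1_at this was 2.23-fold in broilers and 3.18-fold in layers. Change after hatch was common on the array: 13435 probe sets passed (35.0%), 17.1% higher later and 17.9% lower later. Of the 21 members 11 passed, 6 higher later and 5 lower later. The 1 d level rests on 1 pool of each line.

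FBXO22 showed no line difference past the threshold, and its probe sets disagreed on its course with age. The brightest, Gga.8748.1.S1_at, had broiler pools of 8.99, 8.73, 8.42, 8.51 and 8.37 from 1 d to 8 w, and layer pools of 8.78, 8.53, 8.39, 8.49 and 8.42. The arrays of the lines overlapped at each age, and the line difference was 0.08 with a 95% interval of -0.11 to 0.27. Its level was lower after 1 d by 0.40 ± 0.103 (limma adjusted p 0.0154). Without replicate 2 that call was lost, at -0.32.

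The other 4 FBXO22 probe sets above the median moved the opposite way after hatch. Gga.8748.2.S1_s_at went from 6.67 at 1 d to between 8.01 and 8.14 later in broilers, and from 6.90 to between 7.63 and 8.24 in layers. Its rise was 1.23 ± 0.137, and those of Gga.7386.1.S1_s_at, Gga.7386.1.S1_at and Gga.8748.1.S1_s_at were 1.30 ± 0.127, 1.56 ± 0.324 and 1.13 ± 0.142. The limma adjusted p values in that order were 0.000169, 7.99e-05, 0.00552 and 0.000327, and each set kept its call in all 12 alternatives tried. Over the 10 pools these 4 sets correlated with the brightest one at r of -0.86, -0.85, -0.67 and -0.83. Even Gga.8748.1.S1_at and Gga.8748.1.S1_s_at, which share a name stem, ran in opposite directions, so no single course with age can be given for FBXO22 from these arrays.

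In some FBXO22 probe sets the broiler arrays were wholly above the layer arrays at one age and wholly below them at another. The arrays of a pool are technical, and how many of all probe sets cross in this way was not counted. Gga.8748.2.S1_s_at, Gga.7386.1.S1_s_at and Gga.7386.1.S1_at crossed, and correlated with each other at r of 0.88 to 0.98 over the 10 pools. GgaAffx.11898.1.S1_at crossed only by a narrow gap at 8 w, with a lowest broiler array of 3.37 and a highest layer array of 3.33. The gaps were widest in Gga.7386.1.S1_at and GgaAffx.11898.1.S1_at. Gga.7386.1.S1_at stood at 5.06, 7.43, 7.37, 6.79 and 6.19 in broilers, highest at 2 w. In layers it stood at 5.86, 6.67, 7.07, 7.06 and 7.54, highest at 8 w. Broilers were above layers by 0.76 at 2 w and below them by 1.35 at 8 w, with arrays apart at both ages, and the difference over the 5 ages was -0.27 ± 0.259. The dim set GgaAffx.11898.1.S1_at stood at 3.07, 3.45, 3.26, 3.14 and 3.41 in broilers and at 2.95, 4.59, 5.11, 4.30 and 3.13 in layers. Its layer pools of 2 w, 4 w and 6 w were thus above all other pools, and broilers minus layers came to -1.14, -1.85 and -1.16 at those ages. Over the 5 ages it was lower in broilers by 0.75 ± 0.273, which did not pass (limma adjusted p 0.240). The array folds that the study prints for FBXO22 match those of this dim set. Here broilers were 2.20-fold lower at 2 w, 3.61-fold at 4 w and 2.24-fold at 6 w.

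**Figure D3:**
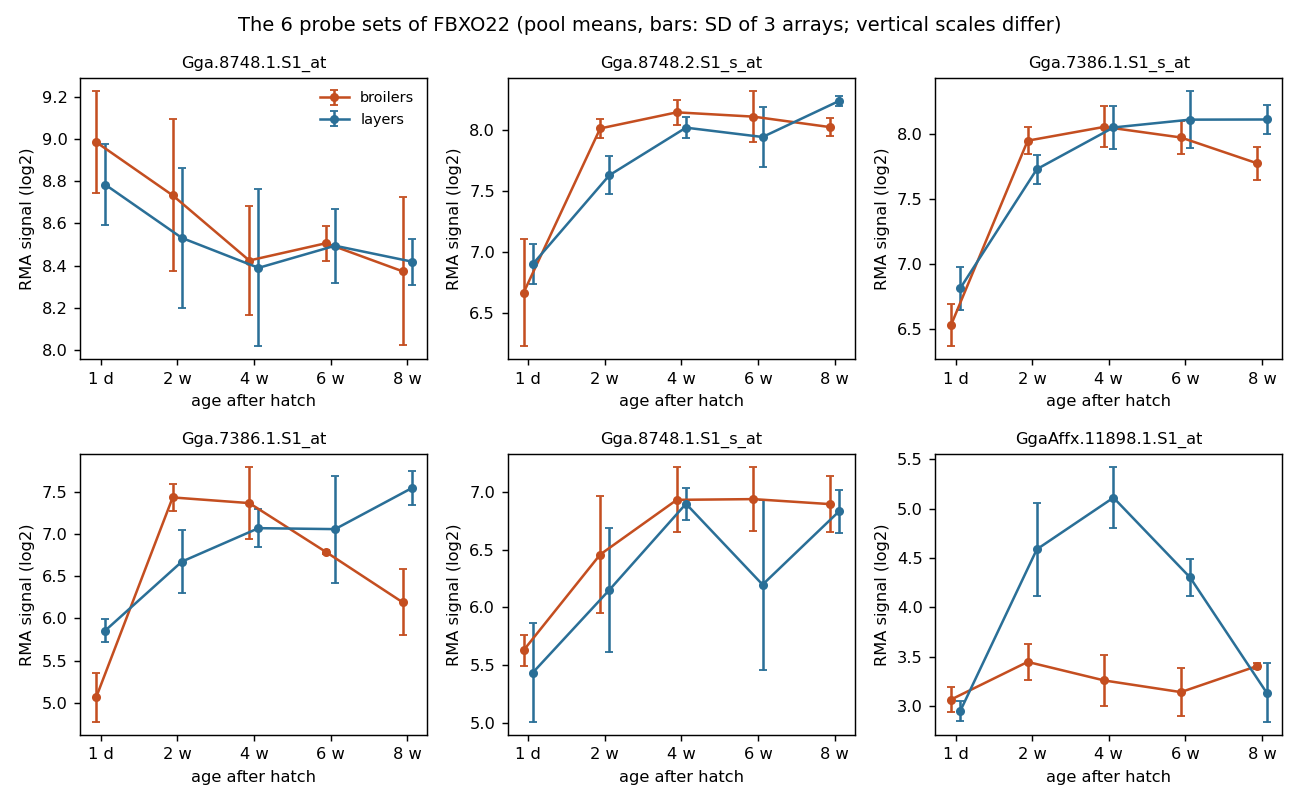
Log2 RMA signal of the 6 FBXO22 probe sets by age after hatch, as the mean of 3 arrays with their SD, in broilers and layers. Gga.8748.1.S1_at falls after 1 d by 0.40 while 4 sets rise by 1.13 to 1.56, and GgaAffx.11898.1.S1_at reaches 5.11 in the layer pool of 4 w alone.

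UCHL1 was higher in broilers from 2 w on, and in neither direction at 1 d. Its one probe set above the median, Gga.9618.1.S1_at, stood at 3.47 (1 d), 6.44 (2 w), 6.17 (4 w), 6.60 (6 w) and 6.11 (8 w) in broilers. In layers it stood at 3.70, 4.97, 4.89, 5.24 and 5.42. All broiler arrays lay above all layer arrays at 2 w, 4 w, 6 w and 8 w, where the broiler signal was 2.77-fold, 2.43-fold, 2.58-fold and 1.61-fold that of layers. At 1 d the broiler pool was lower by 0.23 and the arrays overlapped. Both 1 d pools lay below the median signal of all probe sets. The study placed UCHL1 with the genes that were higher in layers, citing its arrays and its quantitative RT-PCR, which was run at 2 w and 4 w. The tables of its main text print no array fold for UCHL1, so the assay or probe set behind that direction was not identified here. The signal of Gga.9618.1.S1_at ran in the opposite direction from 2 w on.

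Over the 5 ages the UCHL1 difference was 0.91 ± 0.220 (95% interval 0.42 to 1.41), 1.88-fold, and did not pass (limma adjusted p 0.0855). Without the 1 d pools it was 1.20, with a limma adjusted p of 0.00432. Without another age it was 0.78 to 0.97 and did not pass. The line difference at 1 d was below that of the later ages by 1.43 ± 0.292, at an unadjusted limma p of 0.000848 and an adjusted p of 0.134. In that comparison 113 probe sets of the array passed (0.294%), none of them a member, and 1 member had an unadjusted p under 0.05. The rise after hatch was past the threshold: 2.15 ± 0.275 over both lines (limma adjusted p 0.000376), 7.27-fold in broilers and 2.69-fold in layers.

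The other 2 UCHL1 probe sets, Gga.12837.1.A1_at and GgaAffx.9050.1.S1_at, had pool means of 2.27 to 3.15 and line differences of -0.05 and 0.00. The mean of the 3 sets was higher in broilers by 0.29, which did not pass (limma adjusted p 0.155). Neither of the dim sets showed the rise after hatch (differences of -0.16 and 0.04, not past the threshold). Of 12 neuron and axon markers 10 were measured, 6 of them below the median signal of all probe sets. Their mean log2 signal was 3.77 to 3.87 in broiler pools and 3.70 to 3.81 in layer pools, and the part of nerve in the UCHL1 signal was not tested beyond these values. Mean signals of 6 Schwann cell markers lay between 5.55 and 7.63 in broilers and between 6.12 and 7.58 in layers, with 5 of the 6 lower after 1 d. All 6 were lower in broilers over the ages (median -0.28, none past the threshold). Their mean was higher in layers at 2 w, 4 w, 6 w and 8 w, the ages at which UCHL1 was higher in broilers. Other marker lists went both ways. The median line difference was 0.14 for endothelium, 0.20 for adipocyte, 0.26 for erythroid and 0.03 for muscle fibre markers. It was -0.22 for cartilage, -0.09 for fibroblast, -0.07 for satellite cell and -0.01 for immune cell markers. The part of these cell types in the results was not tested.

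From 2 w to 8 w little of a steady trend was measurable, and a slope per week does not describe a course that turns. That of Gga.2248.1.S1_at of FBXO30 in broilers turned, at 7.87 (2 w), 7.08 (4 w), 6.56 (6 w) and 7.84 (8 w). For the change per week from 2 w to 8 w, 62 probe sets of the array passed (0.161%) and none of the 21 members. Only Gga.10819.2.S1_at of FBXO30 had an unadjusted p under 0.05, with a fall of 0.09 per week (limma adjusted p 0.278). The HERC4 signal of GgaAffx.26036.1.S1_s_at was higher after 1 d by 0.42 ± 0.134 (limma adjusted p 0.0373), a call lost without replicate 3. The RLIM signal of Gga.3176.1.S1_at was lower after 1 d by 0.36 ± 0.128, which did not pass (limma adjusted p 0.0574), and its line difference at 1 d and later differed by 0.43 ± 0.224 (limma adjusted p 0.709).

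Whether probe sets of the same gene gave different line differences was tested by flipping signs over the 5 ages. In an exact two-sided permutation test of this kind 0.0625 is the smallest p that 5 ages allow, so no pair could pass 0.05. The brightest set of each gene was set against each other set of that gene, in 16 pairs. The lowest adjusted p over the 16 pairs was 0.167, and in 3 of the 4 HERC4 pairs the other set lay below the median signal. For HERC4 the brightest set was lower in broilers than Gga.17388.1.S1_at by a further 0.57 ± 0.324 (SD over 5 ages).

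Among other genes of the ubiquitin system and the partners of RLIM, only 1 passed the line test by its brightest probe set. Lists of HECT ligases, F-box proteins, cullin ligase parts, muscle ligases, RING ligases, RLIM partners, hydrolases of the UCH family, other deubiquitinases, and ubiquitin genes with E1 and E2 enzymes held 194 other genes with a probe set. That 1 gene was 0.515% of them, against 1.70% of 13009 genes on the array. It was KLHL31, a Kelch-like adaptor of CUL3 ligases that is abundant in muscle, lower in broilers by 0.44 ± 0.0671 at 5 of 5 ages (limma adjusted p 0.0205). The broiler value was the lower one for 125 of the 194 (64.4%) and for 47.4% of all genes on the array. Their median difference was -0.03, and that of all genes on the array was 0.01.

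**Figure D4:**
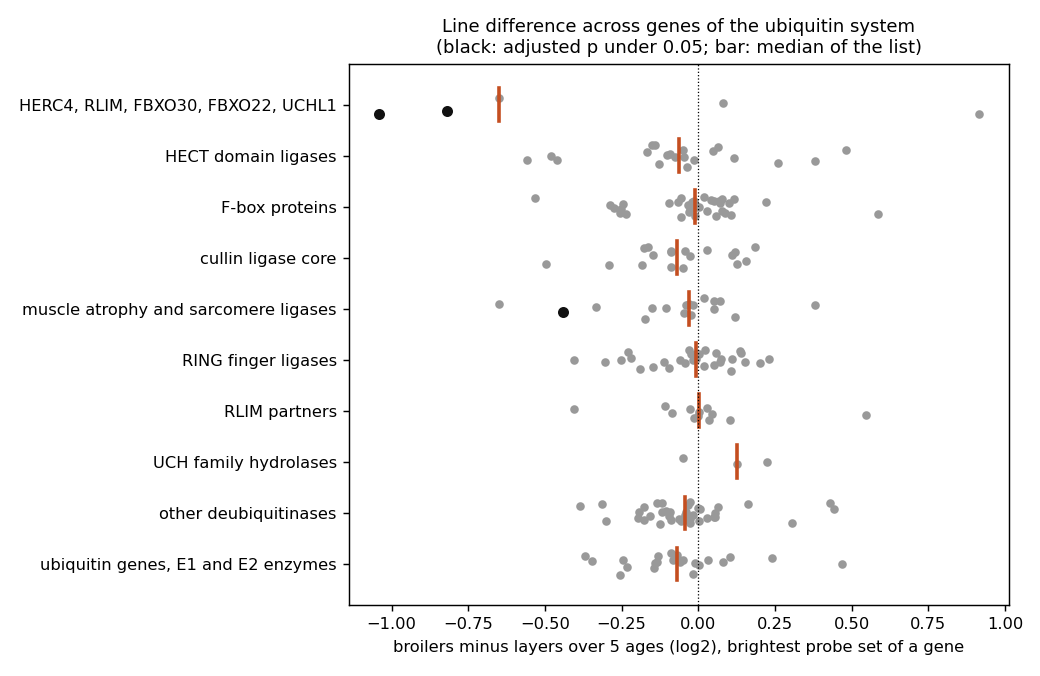
Line difference, broilers minus layers on the log2 scale, for the brightest probe set of the 5 genes and of each gene in 9 lists of ubiquitin system genes and RLIM partners. A bar marks the median of each list. HERC4, RLIM and KLHL31 are past the adjusted threshold (black), and the list medians lie between -0.07 and 0.13.

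Of the other HERC genes listed, HERC5 and HERC6 had no probe set under these symbols. HERC1 differed by -0.07, HERC2 by -0.48 ± 0.135 and HERC3 by 0.26 ± 0.107, none past the threshold. These 3 were named for their kinship after the values had been seen. The 20 HECT ligases measured had a median of -0.06. HECW1 was at -0.56 and HECTD2, whose brightest set differed by 0.48, had a second set at 0.66 ± 0.117 that passed (limma adjusted p 0.0336). That set and 3 of other genes, MDM2 at -0.74, USP25 at 0.34 and USP38 at -0.34, were the only called sets in the lists that were not the brightest of their gene, and they are named because of their calls.

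Of 31 other RING ligases none passed (median -0.01), with RNF6, a relative of RLIM, at -0.40 ± 0.111 and RNF103 at -0.30 ± 0.0916. Among the 12 proteins RLIM is known to bind or act on, LMO2 was at 0.55 ± 0.140 and LMO4 at -0.41 ± 0.101. Both are LIM-only proteins that bind LIM-domain cofactors, and neither passed (limma adjusted p 0.104 and 0.0957). The 12 had a median of 0.00.

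Of 36 other F-box proteins none passed (median -0.01). FBXL22 was at 0.58 ± 0.168 and FBXL5, which senses iron, at -0.53 ± 0.125. Of 18 cullin ligase parts none passed, with CUL4A at -0.50 ± 0.120 and CUL5 at -0.29 ± 0.142. SKP1, CUL1 and RBX1, which form the body of the ligases that FBXO30 and FBXO22 join, differed by 0.12, -0.09 and 0.18. The muscle atrophy ligases FBXO32 (atrogin-1) and TRIM63 (MuRF1) differed by 0.05 ± 0.484 and 0.12 ± 0.161 between lines. Both were lower after 1 d, as FBXO30 was, by 2.09 and 1.04 (limma adjusted p 0.0251 and 0.00380). SKP1, CUL1, RBX1, FBXO32 and TRIM63 were named for their roles after the values had been seen.

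Against UCHL1, its family members UCHL3 and UCHL5 differed by 0.22 ± 0.101 and 0.13 ± 0.137. Of 40 other deubiquitinases none passed by the brightest set (median -0.04), with USP16, which acts on histone H2A, at 0.44 ± 0.103 and USP13 at 0.43 ± 0.175. Of 23 ubiquitin genes and E1 and E2 enzymes none passed (median -0.07), with UBE2T, an E2 of DNA repair, at 0.47 ± 0.103 and UBA6, an E1, at -0.37 ± 0.106. Of 14 interferon response genes, a list kept because the HERC family member HERC5 is induced by interferon, 14 had a lower mean in broilers and none passed (median -0.38). This rests mostly on the 4 w pools, where the mean log2 signal of the list was 7.20 in layers and 5.19 in broilers. At 6 w it was 4.98 in layers and 4.76 in broilers, and at 1 d, 2 w and 8 w broilers were the higher line, at 3.78, 4.60 and 4.63 against 3.72, 4.51 and 4.48. EPSTI1 was at -0.99 ± 0.499 and IFIT5 at -0.72 ± 0.444.

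The genes whose pools ran most like those of each member were picked by Pearson's r over the 10 pools among 14915 probe sets with a single symbol and a mean above the median, and are a description only. For HERC4 they were NSFL1C (r = 0.96), DDTL (0.94) and BTBD7 (0.93), each lower in broilers, by 1.34, 1.00 and 1.06. For RLIM they were TNPO1 (r = 0.92), IPO7 (0.92) and SPG7 (0.92), with line differences of -0.68, -0.37 and -0.42. For FBXO30 they were IGF1R, FOXO4 and LONP2 (r = 0.98 each), with differences of -0.38, -0.38 and -0.24. For UCHL1 they were ECHDC3, MSANTD4 and NCEH1 (r = 0.98 each), with differences of 0.32, 0.11 and 0.45. For the brightest FBXO22 set they were UQCRC1, POLDIP2 and CFAP20 (r = 0.97 each), with differences of 0.13, 0.24 and 0.08. All 10 pools share the same lines and ages.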

How the data were processed

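Labelled RNA of 10 pools was hybridised to 30 Affymetrix arrays. The deposited values are log2 signals that the authors made with RMA (background correction, quantile normalisation and summary over the probes of a probe set). MAS5 detection calls were also named in the submitters' notes and were not used (software versions: not given in the sources used here). From 38535 probe sets the 96 control sets were left out. Arrays of a pool were averaged, and pool means were fitted in limma 3.58.1 (R 4.3.3) with age as a factor and line, eBayes with an intensity trend, and Benjamini-Hochberg adjustment over 38439 probe sets. The change after hatch used the same fit, the trend from 2 w to 8 w a slope per week, and the 1 d contrast an added term. The 3 arrays of a pool are technical, and there is 1 pool of each line at each age. The p-values of the line test and of the change after hatch therefore use the variation of the line difference between ages, array noise included. They do not measure the spread between pools of the same line and age. The 10 pools limit the precision. Gene symbols came from the platform annotation, updated through Entrez identifiers: 27168 probe sets had 1 symbol, 177 several and 11094 none. Scripts were tested on simulated data.

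The members and lists were chosen with earlier results of these data known. Named genes were every member probe set, in each list the called genes or else the 2 with the largest difference, and the 3 genes most like each member; others are said to be named after their values were seen. Alternatives changed the unit (arrays), the block, the age term, the scaling, the filter, the variance model and the pools included.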

Additional observations from a re-analysis of the deposited data

Results flagged for a closer look

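The FBXO22 probe sets named here had the broiler arrays wholly above the layer arrays at one age and wholly below them at another. The arrays of a pool are technical. The turn between these ages was not tested, and how many of all probe sets turn in this way was not counted. The contrast of 1 d with the later ages passed for none of these sets, and was -0.65 for Gga.7386.1.S1_at and 1.09 for GgaAffx.11898.1.S1_at. Gga.8748.2.S1_s_at differed by 0.38 at 2 w and by -0.21 at 8 w (broilers minus layers, log2). Gga.7386.1.S1_s_at differed by 0.22 at 2 w and by -0.34 at 8 w. Gga.7386.1.S1_at, of the same sequence cluster, differed by -0.79 at 1 d, by 0.76 at 2 w and by -1.35 at 8 w. GgaAffx.11898.1.S1_at differed by -1.14 at 2 w, by -1.85 at 4 w and by -1.16 at 6 w, and by 0.27 at 8 w.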

How the results depend on the processing

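The 520 probe sets past the threshold for the line difference became 3996 with the 30 arrays as independent samples, 3404 with the pool as a random block, 17 without an age term, 128, 168, 170 and 215 without the pools of 2 w, 4 w, 6 w and 8 w, and 294 to 603 without 1 replicate number. The members' 4 calls became 11 in each fit on arrays, 0 without an age term, 2 without the pools of 2 w or 8 w, and 2 to 4 without 1 replicate number. Treating arrays as samples counts technical repeats as replicates. Deviations of same-numbered arrays of the lines correlated at over 0.1 in 12 of 15 pairs (median r 0.33, lowest -0.39; median of different numbers -0.13). No source says what a number shares and 3 pairs fell short, so the arrays were not treated as paired. The fit with a replicate block gave 4412 calls in all and 11 members.

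In the fits on arrays, which use technical repeats as samples, FBXO30 (-0.65) and UCHL1 (0.91) were past the threshold. They also passed the study's cutoffs in the fit on pool means, and UCHL1 was past the adjusted threshold without the 1 d pools (1.20). HERC4 (-1.04) and RLIM (-0.82) lost the call without an age term, and HERC4 lost it as the mean of its probe sets (-0.33). As the mean of their probe sets UCHL1 came to 0.29 and FBXO22 to -0.12. The brightest FBXO22 set alone was at 0.08, and the dim set GgaAffx.11898.1.S1_at, part of that mean, at -0.75. For change after hatch, 6386 passed among the 10797 sets at 6 or more in some pool, against 13435 among all probe sets. Fewer sets were tested under this filter, so the counts cannot be compared directly. For the 1 d contrast 46 passed without the intensity trend, against 113 in the main fit, and the cause of that change was not tested. Differences near 0 changed sign: FBXO22 Gga.8748.2.S1_s_at to -0.060 without replicate 3 (-0.060 to 0.17 over the replicates left out) and -0.039 without 2 w; HERC4 GgaAffx.2409.1.S1_at to -0.019, -0.049 and -0.0063 without 1 d, 2 w and 6 w; UCHL1 Gga.12837.1.A1_at to 0.017 without 2 w; and UCHL1 GgaAffx.9050.1.S1_at to 0.017 without replicate 3 (-0.014 to 0.017), 0.011 without 6 w and 0.0055 without 8 w. With 1 pool of each line at an age, no difference at a single age has a test against biological spread.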
